A study of Homo sapiens with 9 samples.

Results

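Integrins are the main receptors by which cells hold the extracellular matrix, and this account follows 10 of their subunit genes, ITGA2, ITGA3, ITGA5, ITGA6, ITGAV, ITGB1, ITGB3, ITGB4, ITGB5 and ITGB8, in liver cancer cells depleted of the ribosomal protein RPL6. The members were taken by symbol among the 19970 protein-coding genes of a table of 60683 genes, and all 10 had enough reads to be tested among 16146 genes. The rule used gene type and symbol alone.

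Every integrin is a heterodimer of an alpha and a beta chain, and the pairing sets the ligand. ITGB1 is the common beta chain, and joins ITGA2 as a collagen receptor, ITGA3 and ITGA6 as laminin receptors and ITGA5 as the classical fibronectin receptor. ITGAV pairs with ITGB1, ITGB3, ITGB5 or ITGB8 in receptors for vitronectin, fibronectin and latent TGF-beta, and ITGB4 pairs with ITGA6 in the laminin receptor of hemidesmosomes, which is tied to keratin filaments. An alpha or beta chain that finds no partner is generally kept in the endoplasmic reticulum, so a transcript level is not a level of receptor at the surface.

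The cells were MHCC97H, a human hepatocellular carcinoma line with high metastatic potential, and the study asked which transcripts move when RPL6 is lost. Each of 3 groups had 3 poly-A libraries. In the control group (shCont) the cells had a control shRNA, a short hairpin that is processed into a silencing guide, and in the others a hairpin against RPL6, shRPL6-1 or shRPL6-2, all from purchased lentivirus, and no other agent is named in the labels, which give the genotype as WT for shCont and as RPL6 knockdown for the rest. All groups therefore share the cell line and a lentiviral hairpin. The sources used here do not say whether each line is a pool or a clone, nor whether replicate libraries stem from separate cultures, so the p-values reflect a spread among libraries that may be technical. Both comparisons with shCont use the same 3 control libraries.

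Total counts ran from 13638468 to 16149480 per library. RPL6 had 7095 to 8584 counts in shCont and 143 to 285 in the hairpin libraries, and its level was 2.83% of shCont with shRPL6-1 and 3.04% with shRPL6-2, which separates control from hairpin libraries but does not tell the hairpins apart. Of 15 hepatocyte markers only HNF4A, KRT8 and KRT18 exceeded 1 CPM (counts scaled to a common library size), and ALB had no count in any library. The summed level of the 10 fibroblast and endothelium markers was 109 to 148 CPM in shCont, 93.2 to 95.1 CPM with shRPL6-1 and 83.5 to 92.4 CPM with shRPL6-2, and 4 of the 10 exceeded 1 CPM. The part of those markers in the results was not tested. shCont replicate 3 stood apart from the other controls. A Spearman correlation was taken over genes, which are not independent, between transcript GC content and how far each gene's log2 level in a library departed from its 9-library mean. It was -0.533 for shCont replicate 1, -0.515 for replicate 2 and 0.243 for replicate 3, and ran from -0.108 to 0.580 for the hairpin libraries. Among the controls only replicate 3 lay within the range of the hairpin libraries. Leaving it out therefore keeps the controls that differ most from them in this correlation. Values against shCont are also given without shCont replicate 3, and a correction for GC content is reported further on. Without that library 13.3% of all genes were lower and 15.6% higher with shRPL6-1, and 21.6% and 22.0% with shRPL6-2. The share called with shRPL6-1 was 8.51% with every library and 29% without shCont replicate 3. It was 0.857% without shCont replicate 1 and 0.603% without shCont replicate 2.

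Levels per length in shCont, as FPKM (fragments scaled to gene length and library size, mean ± SD, n = 3), put ITGB1 first at 49.0 ± 10.7 FPKM and ITGA5 second at 40.5 ± 11.1 FPKM, and the ranges of this pair overlapped. ITGB5 at 19.3 ± 3.66, ITGB4 at 17.1 ± 0.652 and ITGA3 at 16.3 ± 1.14 FPKM followed, with overlap between neighbours and a gap on either side of this trio. ITGAV had 9.0 ± 3.48 FPKM, ITGA2 7.27 ± 2.47 FPKM and ITGA6 4.97 ± 1.38 FPKM, each overlapping the next. ITGB8 at 0.439 ± 0.137 and ITGB3 at 0.437 ± 0.301 FPKM were the least abundant and did not separate. The gene lengths behind the deposited FPKM exceed those of the principal coding transcripts, for instance 16725 against 4888 bases for ITGA3. With the latter lengths, an alternative added after seeing the data, ITGA3 moved from the fifth to the third place and ITGA6 passed ITGA2.

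**Figure D1:**
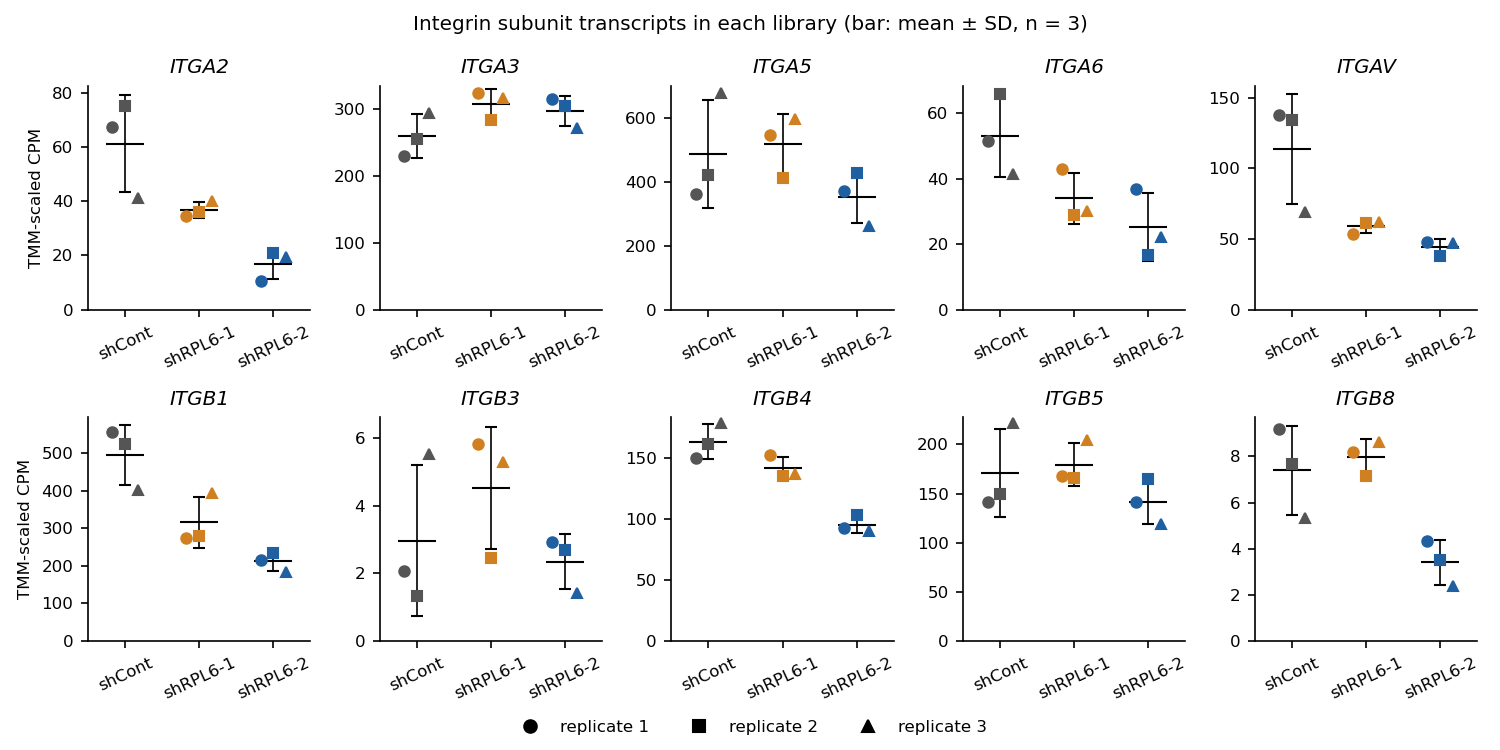
Level of each integrin subunit in every library, as TMM-scaled CPM on a linear axis from 0, with points for libraries, symbols for replicate numbers and bars for mean ± SD (n = 3). On this scale ITGA2, ITGAV and ITGB1 had all 6 hairpin libraries below all 3 shCont libraries, and shCont replicate 3 was the lowest control for each.

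With shRPL6-2, 6 of the 10 subunits fell and none rose: ITGA2, ITGA6, ITGAV, ITGB1, ITGB4 and ITGB8. Of all genes tested with this hairpin, 14.6% were lower and 13.3% higher by edgeR's quasi-likelihood test at an adjusted p under 0.05. With shRPL6-1 only ITGAV fell and none rose, where 4.07% of all genes were lower and 4.44% higher. ITGAV was thus the 1 subunit that fell with both hairpins, as 3.41% of all genes did, and no subunit rose with both, as 3.68% did. At an unadjusted p under 0.05, no subunit was higher with either hairpin, nor was any called higher by DESeq2 or limma-voom. The median log2 fold change of the members was -0.07 with shRPL6-1 and -0.92 with shRPL6-2, beside -0.01 and -0.03 over all genes tested.

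Counted on TMM-scaled CPM without a model, 3 subunits (ITGA2, ITGAV and ITGB1) had all shRPL6-1 libraries below all shCont libraries. Of all genes, 15.2% did. The count was 6 with shRPL6-2, the same subunits that the test called, against 19.7% of all genes. For ITGA2, ITGAV and ITGB1 all 6 hairpin libraries lay below the controls, as for 10.6% of all genes. These counts depend on the scale. In the deposited FPKM, shRPL6-1 replicate 3 lay above shCont replicate 3 for ITGA2 (4.51 against 4.47) and ITGB1 (37.1 against 36.8). ITGAV kept all hairpin libraries below the controls. In FPKM ITGB4 was also below shCont without overlap with shRPL6-1, and ITGA5 and ITGB5 were with shRPL6-2. The shares of all genes were not computed in FPKM.

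**Figure D2:**
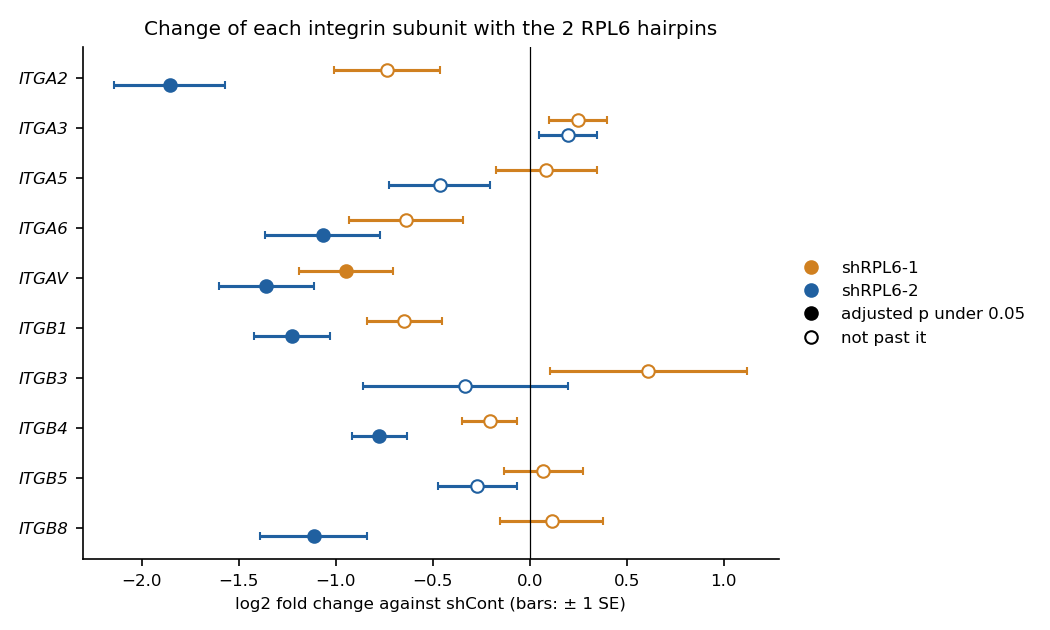
log2 fold change of each subunit against shCont with shRPL6-1 (orange) and shRPL6-2 (blue), bars ± 1 SE, filled where the adjusted p was under 0.05. The estimate was lower with shRPL6-2 than with shRPL6-1 for all 10 subunits.

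ITGB1 (ENSG00000150093, chr10:32900318-33005792, minus strand, GRCh38) stood at 555, 524 and 403 CPM in shCont replicates 1, 2 and 3, at 273, 280 and 393 CPM with shRPL6-1 and at 216, 234 and 184 CPM with shRPL6-2. In CPM the hairpin groups did not overlap shCont, but shRPL6-1 replicate 3 came within 10 CPM of shCont replicate 3. In FPKM shRPL6-1 replicate 3 was the higher of these libraries (37.1 against 36.8 FPKM), so shRPL6-1 overlapped shCont. The beta1 chain fell with shRPL6-2 by 1.22 on the log2 scale (SE 0.19, adjusted p = 0.0042 by edgeR's quasi-likelihood test), to 42.8% of shCont. With shRPL6-1 its log2 fold change was -0.65 (SE 0.19, adjusted p = 0.0615), and without shCont replicate 3 it was -0.77 (adjusted p = 0.013), and -1.35 with shRPL6-2 (adjusted p = 7.66e-04). ITGB1 overlaps ITGB1-DT, a divergent noncoding gene at 2.28 CPM.

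ITGA2 (ENSG00000164171, chr5:52989340-53094779, plus strand), the alpha2 chain of a collagen receptor, had the largest fall among the members with shRPL6-2. Its levels were 67.4, 75.4 and 41.2 CPM in shCont, 34.4, 35.9 and 40.2 CPM with shRPL6-1 and 10.6, 20.7 and 19.6 CPM with shRPL6-2. All shRPL6-2 libraries lay below all others. Against shCont replicate 3, shRPL6-1 replicate 3 lay just under it in CPM and just above it in FPKM (4.51 against 4.47 FPKM). The log2 fold change was -1.86 with shRPL6-2 (SE 0.28, adjusted p = 0.00368), a level 27.6% of shCont, and -0.74 with shRPL6-1 (SE 0.27, adjusted p = 0.109). Without shCont replicate 3 these were -2.07 (adjusted p = 5.60e-04) and -0.95 (adjusted p = 0.0184).

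Of the laminin receptor chains, ITGA3 (ENSG00000005884, chr17:50055968-50090481, plus strand) stood at 229, 255 and 293 CPM in shCont, 324, 284 and 316 CPM with shRPL6-1 and 315, 304 and 272 CPM with shRPL6-2. The groups overlapped, and the log2 fold changes of 0.25 (adjusted p = 0.286) and 0.20 (adjusted p = 0.333) did not pass the test. They were 0.35 and 0.30 without shCont replicate 3 (adjusted p = 0.0729 and 0.0926). ITGA6 (ENSG00000091409, chr2:172427354-172506459, plus strand) had 51.5, 65.7 and 41.3 CPM in shCont, 42.9, 28.8 and 30.2 CPM with shRPL6-1 and 36.8, 16.6 and 22.3 CPM with shRPL6-2. Only shRPL6-2 cleared the controls. ITGA6 fell there by 1.07 on the log2 scale (SE 0.30, adjusted p = 0.0244), and with shRPL6-1 it was -0.64 (adjusted p = 0.174). Without shCont replicate 3 these were -1.21 (adjusted p = 0.0108) and -0.78 (adjusted p = 0.0788). The shRPL6-2 call ended without shCont replicate 1 (adjusted p = 0.0671), shCont replicate 2 (0.0984), shRPL6-2 replicate 2 (0.0895) or shRPL6-2 replicate 3 (0.0576).

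ITGB4 (ENSG00000132470, chr17:75721328-75757818, plus strand), the partner of ITGA6 in hemidesmosomes, was 150, 161 and 179 CPM in shCont, 152, 135 and 137 CPM with shRPL6-1 and 92.9, 103 and 90.3 CPM with shRPL6-2. Its replicates were close together and the shRPL6-2 libraries formed a separate low group. It fell with shRPL6-2 by 0.78 (SE 0.14, adjusted p = 0.00604) and its value with shRPL6-1 was -0.21 (adjusted p = 0.349). When shCont replicate 3 was left out these were -0.70 (adjusted p = 0.00253) and -0.13 (adjusted p = 0.465). The neighbour GALK1 overlaps its range at 61.3 CPM, and since the use of strand in counting is not given, the division of reads between them is uncertain. GALK1 had log2 fold changes of 0.15 and 0.70 (adjusted p = 0.085 for the latter). The log2 ratio of ITGB4 to ITGA6 in FPKM was 1.82 ± 0.42 in shCont, 2.26 ± 0.22 with shRPL6-1 and 2.17 ± 0.65 with shRPL6-2 (n = 3 each), which overlapped (exact permutation test, two-sided, p = 0.2 and 0.6).

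ITGA5 (ENSG00000161638, chr12:54395261-54419266, minus strand), the fibronectin receptor chain, ranged widely within groups. It had 362, 422 and 679 CPM in shCont, 545, 411 and 595 CPM with shRPL6-1 and 370, 427 and 263 CPM with shRPL6-2. The highest control was shCont replicate 3, and the groups overlapped. Its log2 fold changes were 0.09 (adjusted p = 0.854) and -0.46 (adjusted p = 0.201). Leaving out shCont replicate 3 gave 0.40 (adjusted p = 0.195) and -0.14 (adjusted p = 0.62).

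ITGAV (ENSG00000138448, chr2:186590056-186680901, plus strand), the alpha chain of the vitronectin receptors, was 138, 135 and 69.0 CPM in shCont, 53.6, 61.4 and 62.0 CPM with shRPL6-1 and 48.0, 37.9 and 47.4 CPM with shRPL6-2. All hairpin libraries lay below the controls, although shCont replicate 3 sat closer to them than to the other controls. ITGAV fell by 0.95 with shRPL6-1 (SE 0.24, adjusted p = 0.0409) and by 1.36 with shRPL6-2 (SE 0.25, adjusted p = 0.00597). The shRPL6-1 call was not stable. It ended without shCont replicate 1 (adjusted p = 0.147), shCont replicate 2 (0.149), shRPL6-1 replicate 1 (0.149), 2 (0.0959) or 3 (0.107), or shRPL6-2 replicate 1 (0.0659), and held without shCont replicate 3 at a log2 fold change of -1.20 (adjusted p = 0.00181). The share of all genes called went from 8.51% with every library to 0.603% without shCont replicate 2, the lowest share of these fits. With shRPL6-2 ITGAV was at -1.61 without shCont replicate 3 (adjusted p = 2.75e-04).

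Among the beta chains that pair with ITGAV, ITGB5 (ENSG00000082781, chr3:124761948-124901418, minus strand) had 141, 150 and 222 CPM in shCont, 168, 166 and 205 CPM with shRPL6-1 and 141, 165 and 119 CPM with shRPL6-2, and the groups overlapped (log2 fold changes 0.07 and -0.27, adjusted p = 0.848 and 0.336). With shCont replicate 3 left out these were 0.31 (adjusted p = 0.192) and -0.03 (adjusted p = 0.889). ITGB8 (ENSG00000105855, chr7:20330702-20415754, plus strand), a chain known for activating latent TGF-beta, was 9.19, 7.66 and 5.33 CPM in shCont, 8.20, 7.16 and 8.63 CPM with shRPL6-1 and 4.32, 3.51 and 2.40 CPM with shRPL6-2. Only shRPL6-2 lay below the controls, and the log2 fold change with shRPL6-1 was 0.11 (adjusted p = 0.808). With shRPL6-2 it fell by 1.11 (SE 0.28, adjusted p = 0.0166), a call that ended without shCont replicate 1 (adjusted p = 0.0751), shCont replicate 2 (0.0633) or shRPL6-2 replicate 2 (0.0557). Leaving out shCont replicate 3 gave -1.30 with shRPL6-2 (adjusted p = 0.00345) and -0.07 with shRPL6-1 (adjusted p = 0.849). ITGB3 (ENSG00000259207, chr17:47253827-47313743, plus strand), best known as the beta chain of platelet and vitronectin receptors, had 19 to 93 counts per library. It was 2.06, 1.33 and 5.53 CPM in shCont, 5.82, 2.45 and 5.30 CPM with shRPL6-1 and 2.92, 2.69 and 1.42 CPM with shRPL6-2. The groups overlapped, and its log2 fold changes were 0.61 (adjusted p = 0.446) and -0.33 (adjusted p = 0.661). Without shCont replicate 3, the highest control, they became 1.42 (adjusted p = 0.04) and 0.48 (adjusted p = 0.42).

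Set directly against each other, shRPL6-2 gave a lower estimate than shRPL6-1 for all 10 subunits, from -1.23 for ITGB8 to -0.05 for ITGA3, with a median of -0.56 beside -0.01 over all genes. None passed edgeR's quasi-likelihood test, under which 0.316% of all genes were lower. At an unadjusted p under 0.05 there were 4 subunits (ITGA2, ITGB1, ITGB4 and ITGB8), beside 10.9% of all genes. DESeq2 called 3 lower (ITGA2, ITGB4 and ITGB8), beside 1.84% of all genes, and limma-voom called 0. The smallest adjusted p was 0.112, for ITGB8 at -1.23 (SE 0.28), and it became 0.043 without shCont replicate 3, where 0.915% of all genes were lower. RPL6 itself differed by 0.10 on the log2 scale between the hairpins (adjusted p = 0.878).

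**Figure D3:**
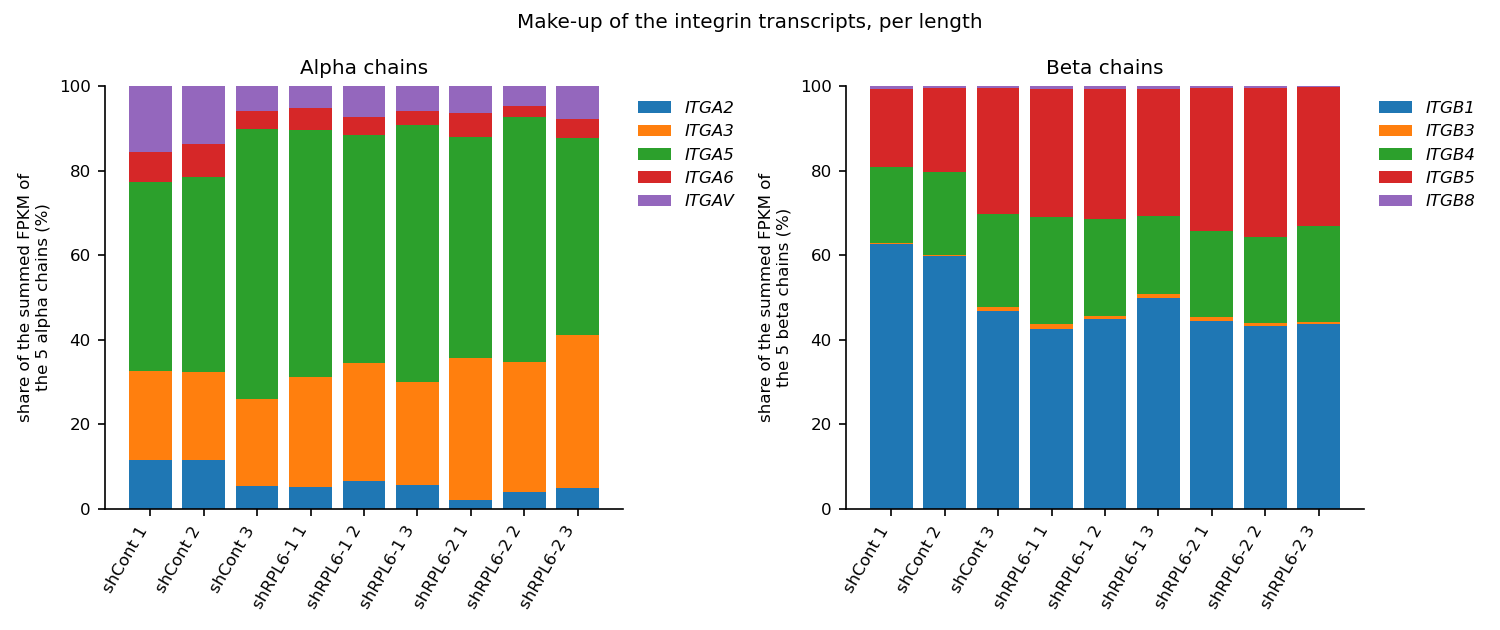
Share of each chain in the summed FPKM of the 5 alpha chains (left) and the 5 beta chains (right), in percent, for each of the 9 libraries. ITGB1 took 62.5% and 59.8% of the beta chain signal in shCont replicates 1 and 2, and 42.4% to 49.8% in the other 7 libraries, shCont replicate 3 included.

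The make-up of the integrin transcripts was compared on the FPKM scale, over the listed members only. Expressed chains outside the list are left out, among them ITGA1 at 86.8 CPM and ITGB2 at 24.5 CPM in shCont. ITGB1 took 56.4% ± 8.48 of the summed beta chains in shCont, 45.7% ± 3.73 with shRPL6-1 and 43.8% ± 0.605 with shRPL6-2 (SD, n = 3). ITGB5 took 22.7% ± 6.23, 30.3% ± 0.341 and 33.9% ± 1.31. With 3 libraries a group the two-sided exact permutation test cannot go below 0.1, the value reached by ITGB5 with both hairpins and by ITGB1 with shRPL6-2, while ITGB1 with shRPL6-1 gave 0.2. The ITGB1 share in shCont replicate 3, 46.7%, lay within the shRPL6-1 range. Its ITGB5 share, 29.8%, lay just under the shRPL6-1 minimum of 30.0%. With principal transcript lengths the ITGB5 share with shRPL6-1 overlapped that of shCont (exact permutation test, p = 0.2). Among alpha chains ITGA3, whose level did not pass the test with either hairpin, took 20.9% ± 0.246, 26.1% ± 1.83 and 33.6% ± 2.67 (exact p = 0.1 with both). The summed beta chains were 86.3, 63.8 and 42.5 FPKM and the summed alpha chains 78.0, 70.9 and 50.3 FPKM in shCont, shRPL6-1 and shRPL6-2 (exact p = 0.1 for the beta chains with both hairpins and for the alpha chains with shRPL6-2, and 0.4 for the alpha chains with shRPL6-1). As TMM-scaled CPM, not per length, the summed alpha chains were 975, 955 and 737 (exact p = 0.9 with shRPL6-1 and 0.1 with shRPL6-2). With principal transcript lengths they were 196, 198 and 153 (exact p = 0.9 and 0.2). The summed beta chains gave an exact p of 0.1 with both hairpins on both of these scales. In bulk samples fewer expressing cells and less RNA per cell cannot be told apart.

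Transcript GC content differed widely among the members and ran alongside the calls. The longest transcripts of ITGB8 (37.8%), ITGAV (38.3%), ITGB1 (40.0%), ITGA2 (40.2%) and ITGA6 (42.9%) lie below the median of 49.0% over all genes tested, and all 5 fell with shRPL6-2. ITGB3 (52.3%), ITGB5 (54.3%), ITGA5 (54.5%) and ITGA3 (61.3%) lie above it and did not pass the test. ITGB4, at 63.7%, is the exception that fell.

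When each library's trend of counts on GC content was removed, the falls of the 5 GC-poor members with shRPL6-2 became smaller and the values of the 5 others became lower. With that hairpin, ITGA2 was at -1.33 (adjusted p = 0.00592), ITGAV at -0.79 (0.00289), ITGB1 at -0.71 (0.0194) and ITGB4 at -1.23 (6.22e-04), and all 4 calls held. ITGA6 (-0.72, adjusted p = 0.0722) and ITGB8 (-0.55, adjusted p = 0.121) no longer passed, while ITGA5 (-0.68, adjusted p = 0.029) and ITGB5 (-0.48, adjusted p = 0.0273) newly did, so 6 subunits were again lower, beside 12.9% of all genes. With shRPL6-1, ITGAV held at -0.59 (adjusted p = 0.0148) and ITGB4 was added at -0.47 (adjusted p = 0.0359), beside 7.82% of all genes lower, while ITGB1 was at -0.36 (adjusted p = 0.199). Between the hairpins ITGB4 passed at -0.76 (adjusted p = 0.024), beside 0.892% of all genes lower. With length corrected as well, ITGA2, ITGAV, ITGB1 and ITGB4 remained lower with shRPL6-2, and ITGAV and ITGB4 with shRPL6-1, beside 12% and 7.82% of all genes. ITGAV fell with both hairpins before and after either correction.

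**Figure D4:**
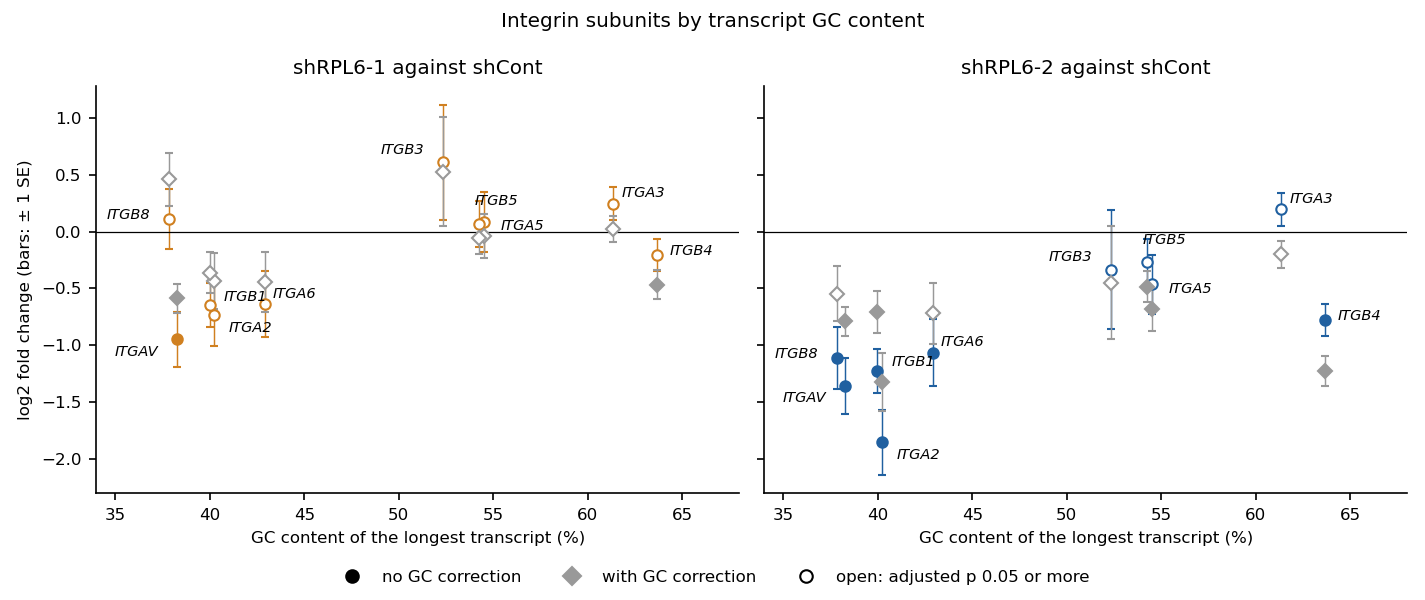
log2 fold change against shCont (± 1 SE) by GC content of the longest transcript, before (circles) and after (grey diamonds) a per-library GC correction, filled where the adjusted p was under 0.05. After correction with shRPL6-2, ITGA2 (40.2% GC) and ITGB4 (63.7% GC) had the lowest values (-1.33 and -1.23).

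The hairpins were compared with the members' sequences, since a guide strand can also pair with other messages through its seed, bases 2 to 8 from its 5′ end. The antisense strands in the study's oligo list, taken here as the guides, are shown with the seed in capitals.
shRPL6-1 guide: uUUGCGAAguuuaaccacc
shRPL6-2 guide: uAAUAAGCcacuagccagc
The match to the shRPL6-1 seed (TTCGCAA) was in the 3′ UTR of none of the 10 members and of 1.04% of 12836 genes. The match to the shRPL6-2 seed (GCTTATT) was in 2 members, ITGB1 and ITGB8, and in 11.1% of genes. Both sites are shown in the sense direction from the principal transcripts of GENCODE 29, with the match in capitals.
ITGB1 site: gaaatcaaGCTTATTggattaag
ITGB8 site: tatggtttGCTTATTtttgcaag
Both genes fell with shRPL6-2, and so did ITGA2, ITGA6, ITGAV and ITGB4, whose 3′ UTRs hold no such match. Over the 12836 genes the median log2 fold change with shRPL6-2 was -0.52 with a match to its seed and -0.01 without one. Genes with that match also had a lower median GC content (42.1% against 50.1%) and longer 3′ UTRs (median 3001 against 902 bases). For shRPL6-1 and its seed the medians were -0.21 with a match and -0.03 without one. Those with a match again had a lower GC content (44.5% against 48.8%) and longer 3′ UTRs (3399 against 1040 bases). The part of the seed in the results was not tested.

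Promoter sequence is shown for the 3 members whose hairpin libraries all lay below shCont in TMM-scaled CPM. It is given as the 250 bases before a RefSeq transcript start (GRCh38.p14), with GC boxes (GGGCGG, either strand, the motif bound by SP1) in capitals. RefSeq windows were found for 7 of the 10 members. ITGB1 and ITGAV each have a second window, not shown.
ITGA2, chr5:52989102-52989351, plus strand: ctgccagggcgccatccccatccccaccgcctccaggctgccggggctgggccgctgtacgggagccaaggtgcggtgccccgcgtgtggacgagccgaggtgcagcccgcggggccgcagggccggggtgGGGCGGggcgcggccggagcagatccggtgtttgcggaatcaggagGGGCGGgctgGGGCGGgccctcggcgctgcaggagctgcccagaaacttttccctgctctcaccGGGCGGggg
ITGB1, chr10:32958231-32958480, minus strand: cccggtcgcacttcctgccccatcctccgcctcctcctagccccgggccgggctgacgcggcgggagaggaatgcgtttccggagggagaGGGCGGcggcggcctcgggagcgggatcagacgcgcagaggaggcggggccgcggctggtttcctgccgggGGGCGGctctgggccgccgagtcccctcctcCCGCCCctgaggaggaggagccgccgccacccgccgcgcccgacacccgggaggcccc
ITGAV, chr2:186589806-186590055, plus strand: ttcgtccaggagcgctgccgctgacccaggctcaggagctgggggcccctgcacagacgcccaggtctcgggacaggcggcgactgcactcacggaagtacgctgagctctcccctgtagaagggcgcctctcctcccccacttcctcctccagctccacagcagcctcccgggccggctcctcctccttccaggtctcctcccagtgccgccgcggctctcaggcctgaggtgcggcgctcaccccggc
ITGA2 holds 4 GC boxes and ITGB1 3, and these letters are not in the ITGAV window. Of 35116 promoter windows of that length, 42.6% hold a GC box. None of the 3 windows shown holds TATAAA (10.7% of all windows), CACGTG (6.34%) or TGANTCA (6.57%). The second ITGB1 window (chr10:32935559-32935808) holds TATAAA 3 times, counted on both strands with overlap, and no GC box, and the second ITGAV window (chr2:186599955-186600204) holds none of these motifs.

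Over the 9 libraries the log2 levels of ITGAV and ITGA2 each had a Pearson correlation of 0.900 with ITGB1, ITGB4 0.821 and ITGB3 0.0148. ITGA5 and ITGB5 correlated with each other at 0.960, and ITGA3 with ITGAV at -0.786. These are descriptions over libraries that share groups and the GC trend. Among 11738 protein-coding genes the patterns most like that of ITGB1 were those of LPCAT2 (0.996), ANKMY2 (0.970) and ANXA3 (0.967).

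Genes around the integrins were read from lists of known partners. Of 16 other subunits 9 were tested. ITGAX, named after its value was seen, fell with shRPL6-1 (log2 fold change -1.09), and with shRPL6-2 ITGA1, a collagen receptor chain, fell (-0.99, adjusted p = 0.0128) while ITGAE, a receptor chain for E-cadherin, rose (0.69, adjusted p = 0.00984). Of 29 matrix ligands tested, 7 rose and none fell with shRPL6-1, while shRPL6-2 had 3 higher and 4 lower. For all genes the shares were 4.44% higher and 4.07% lower with shRPL6-1 and 13.3% and 14.6% with shRPL6-2, so the shRPL6-2 counts of ligands were near or below them. The matricellular ligands CCN1 (1.88 and 0.94 with shRPL6-1 and shRPL6-2) and CCN2 (1.32 and 0.60) and the laminin chain LAMA4 (1.27 and 0.56) rose with both. With shRPL6-2 the call of LAMA4 ended whichever library was left out (adjusted p from 0.0579 to 0.147), and that of CCN2 was lost on omission of either of the first pair of controls or of shRPL6-2 replicate 1 (adjusted p up to 0.0938). CCN1, FBN1, NID1 and THBS1 were lower with shRPL6-2 than with shRPL6-1, the last 3 named after their values were seen, and the call of CCN1 (adjusted p = 0.0467) was lost in 8 of 9 fits that left out 1 library.

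Inside the cell, 1 of 24 activators and adaptors was higher with shRPL6-1, whereas with shRPL6-2 there were 2 higher and 5 lower. The share higher with shRPL6-1 was near the 4.44% of all genes, and that with shRPL6-2 was below 13.3%, beside 14.6% of all genes lower. TLN1, the talin that activates integrins by binding the beta tail, rose with both (0.79 and 0.68, adjusted p = 0.0194 and 0.0128), and lost its call with shRPL6-2 after GC correction (0.38, adjusted p = 0.0702). The 5 that fell, named after their values were seen, were FERMT2, VCL, TNS1, RAP1B and KANK2. Among 8 inhibitors, 1 was higher with shRPL6-1 and 2 were higher and 1 lower with shRPL6-2. ITGB1BP1, which binds the ITGB1 tail, rose with shRPL6-2 (0.51, adjusted p = 0.0197), and SLK fell (-0.86, adjusted p = 0.0291). Of 14 trafficking genes, 1 was higher with shRPL6-1 and 2 were higher and 3 lower with shRPL6-2. AP2M1, a clathrin adaptor subunit, rose (0.91, adjusted p = 0.00778) and RAB11FIP1, a recycling adaptor, fell (-0.69, adjusted p = 0.0129) with shRPL6-2.

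Of 15 lateral and hemidesmosome partners, shRPL6-1 had 2 higher and none lower, beside 4.44% and 4.07% of all genes. With shRPL6-2 there were 4 higher and 2 lower, beside 13.3% and 14.6%. SLC3A2, which binds beta tails, rose with both (0.74 and 0.99). Of 9 glycosylation and folding genes, 2 fell with shRPL6-1 and 3 with shRPL6-2, beside 4.07% and 14.6% of all genes. The chaperone HSPA5 (-0.68 and -0.84) and MGAT5, which branches N-glycans on integrins (-0.78 and -0.79), fell with both. None of 14 transcription regulators passed the test with shRPL6-1, and with shRPL6-2 1 rose and 4 fell, WWTR1 (-1.19, adjusted p = 0.0025) and HIF1A (-0.98, adjusted p = 0.0125) among them. Over all genes 13.3% rose and 14.6% fell with shRPL6-2.

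The partner calls leaned on few libraries. Of the 7 made with shRPL6-1 for genes selected by rule, 3 (CCN1, CCN2 and LAMA4) held whichever library was left out. SLC3A2, HSPA5 and MGAT5 lost theirs without shCont replicate 1 or 2, any shRPL6-1 library or shRPL6-2 replicate 1, and TLN1 without the first 5 of these (adjusted p from 0.0534 to 0.148). Of the 15 made with shRPL6-2, 6 held whichever library was left out (CCN1, AP2M1, RAB11FIP1, SLC3A2, HSPA5 and WWTR1). Besides LAMA4 and CCN2, TLN1 lost its call without shCont replicate 1 or 2, ITGAE without shCont replicate 2, ITGA1 without either of these controls or shRPL6-2 replicate 2, HIF1A without shCont replicate 2 or shRPL6-2 replicate 2, and ITGB1BP1, SLK and MGAT5 on omission of any library numbered 1 or 2 in shCont and in the shRPL6-2 group (adjusted p from 0.0503 to 0.118). SLK also lost it after GC correction (-0.35, adjusted p = 0.0893). With GC and length corrected together, AP2M1, ITGA1 and SLK lost their calls with shRPL6-2.

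Without shCont replicate 3, an alternative singled out after seeing the data, more partners passed with shRPL6-1, and so did all genes, of which 29% were called in place of 8.51%. Ligands then had 11 higher and none lower, inhibitors 5 higher and 1 lower, activators and adaptors 3 in each direction, and transcription regulators 3 higher and 5 lower. With shRPL6-2 ligands had 6 higher and 4 lower, inhibitors 6 higher and 1 lower, and regulators 3 higher and 4 lower, where 43.6% of all genes were called in place of 27.9%. With all libraries, list medians ran from -0.43 (glycosylation and folding) to 0.37 (inhibitors) with shRPL6-1 and from -0.57 to 0.29 for the same lists with shRPL6-2, beside -0.01 and -0.03 over all genes tested.

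**Figure D5:**
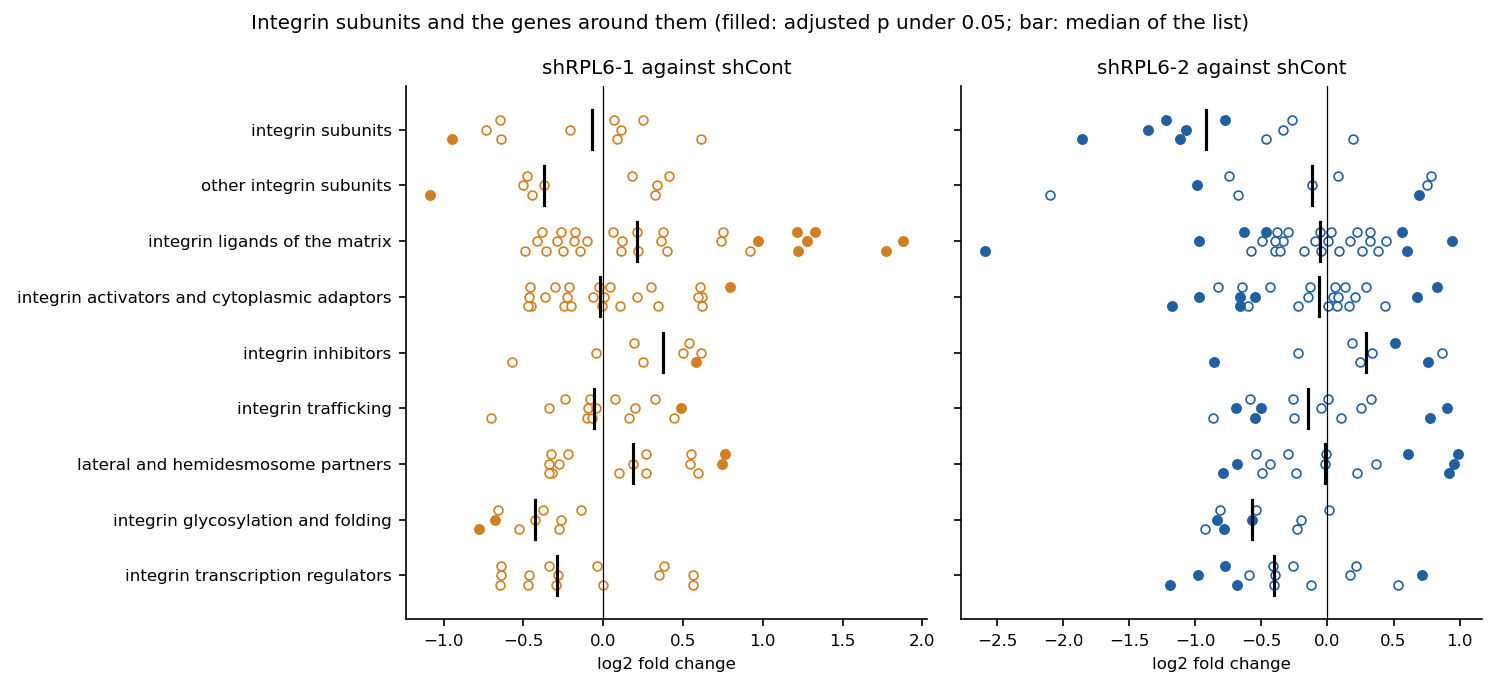
log2 fold change against shCont of the integrin subunits and of each tested gene of the partner lists, filled where the adjusted p was under 0.05, with a bar at each list's median. The integrin subunits had the lowest median of the lists with shRPL6-2 (-0.92).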

How the data were processed

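Whole-number counts per gene and the FPKM that the authors computed from them were deposited in a table for 9 libraries, and no column of per-sample values was left unused (0 columns). Per the submitters' processing notes, CASAVA 1.8, HISAT2, StringTie and edgeR were used with GRCh38. The program that counted reads, its annotation and its strand setting were not given in the sources used here. Reads of overlapping genes could therefore be divided differently. Columns were matched to groups by name, and the sources used here do not explain the column abbreviations.

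Counts were filtered with filterByExpr (16146 of 32426 genes with any count, 99.8% of counts), scaled by TMM and fitted over all 9 libraries with edgeR 4.0.16 in R 4.3.3 (quasi-likelihood test, two-sided, Benjamini-Hochberg adjustment over all genes tested, threshold 0.05, common biological coefficient of variation 0.239). SE is the absolute log2 fold change over the square root of F. Shares were computed from FPKM and compared by exact permutation tests with scipy 1.17.1. The code was tested on simulated data. Replicate pairs all differed by more than counting noise (chi-square over its degrees of freedom, 10.2 to 65.5).

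Alternatives were DESeq2 1.42.0, limma 3.58.1 (voom), other size factors, other filters, fits to the compared groups only, each library left out, a replicate block, and GC and length trends removed per library as natural splines with 5 degrees of freedom. Principal transcript lengths were added after seeing the data. Named genes are all members, RPL6, the 3 genes most like ITGB1 among protein-coding genes with average log2 CPM of at least 1, and from each partner list up to 4 genes called with both hairpins, or otherwise up to 2 called with either. The members and lists were chosen with earlier results of these data known.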

Additional observations from a re-analysis of the deposited data

How the results depend on the processing

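The shRPL6-2 count of 6 lower subunits was the same with DESeq2's size factors, DESeq2, limma-voom, both other filters, a fit to the compared groups only, the replicate block and the GC correction (with other members), was 4 with GC and length correction, and ranged from 4 to 6 when 1 library was left out. It was 3 with the replicate block and GC correction together. The shRPL6-1 count in either direction, 1 as reported, was 2 with DESeq2 (ITGAV and ITGB1), GC correction, and GC and length correction, and 0 with limma-voom, without a filter, with the compared groups only and with the replicate block. The count with both hairpins gave the same numbers, 2 and 0, under those settings. Leaving out 1 library moved the shRPL6-1 count from 0 to 4 (3 lower and ITGB3 higher), the count with both hairpins from 0 to 3 and the count between hairpins from 0 to 1, the upper values all without shCont replicate 3. All genes called with shRPL6-1 ran from 0.603% to 29% in those fits. Between hairpins DESeq2 called 3 subunits and either correction 1 (ITGB4). Same-numbered libraries correlated from -0.539 to 0.288 after group means were removed. The levels still held the GC trend, so these correlations cannot tell whether replicate numbers pair the libraries. The block is given only here.

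Of 570 member values under alternatives, 516 kept direction and side of the threshold, 24 lost the call, 14 gained one and 16 changed sign. None of the sign changes passed the test. With shRPL6-2 ITGA3 was -0.20 with GC correction, -0.20 with block and GC correction and -0.000575 with GC and length correction. With shRPL6-1 ITGA5 was -0.0379 and ITGB5 -0.0585 with GC correction, and -0.0352 and -0.0582 with block and GC correction. Leaving out 1 library moved ITGA5 from -0.11 to 0.40, ITGB5 from -0.0702 to 0.31 and ITGB8 from -0.0705 to 0.27 with shRPL6-1, ITGB3 from -0.68 to 0.48 with shRPL6-2, and ITGA3 from -0.10 to 0.00889 between hairpins. The causes were not tested. Depth limits ITGB3 and ITGB8 most, with as few as 19 and 32 counts in a library.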
